A study of Mus musculus with 128 samples.

Results

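Chromatin regions that opened with PD in both genotypes were defined from 8 ATAC libraries of mouse hepatocytes taken at E15.5 and cultured for 2 days. ATAC-seq marks open chromatin by the places a transposase can enter. The peaks of the 8 libraries merged into 63719 regions, and 766 of them (1.20%) had a peak in all 4 PD libraries and in none of the 4 controls. These 766 opened regions are described here with their nearest genes and with their presence in 12 ATAC libraries of uncultured E17.5 hepatocytes. The study examined PAR3, a polarity protein, in hepatocyte proliferation and maturation.

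The 8 cultured ATAC libraries were 2 each of Pard3WT control, Pard3WT PD, Pard3HMKO control and Pard3HMKO PD. All ATAC libraries came from hepatocytes of C57BL/6 mice that carried Foxa3-Cre, in which the Foxa3 gene drives the Cre recombinase. The controls carried it too. Pard3HMKO libraries had the genotype Foxa3-Cre;Pard3-fl/fl, and Pard3WT libraries had Foxa3-Cre alone. TPPB, an activator of protein kinase C, was given to 2 more cultured Pard3WT libraries. The E17.5 libraries were untreated, with 3 each of Pard3WT, Pard3HMKO, YapWT and YapHMKO (Foxa3-Cre;Yap-fl/fl). RNA came from Smart-seq3xpress libraries of the same lines on C57BL/6 (2 per culture group, with control, PD, U0126, TPPB, or TPPB with PD), from 2 libraries each of Pard3WT, Pard3HMKO, YapWT and YapHMKO at E17.5, and from 18 wild-type B6C3F1 libraries between E11.5 and E19.5. U0126 inhibits the kinase MEK. The labels give PD by that name only, with no dose. No label says that libraries of a group came from separate animals, so p-values measure the spread between libraries, which may be technical.

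Hepatocytes mature late in gestation, when they gain bile acid transport, fatty acid oxidation, lipoprotein secretion and detoxifying enzymes. Their enhancers are bound by factors such as HNF4A, FOXA, HNF1 and CEBP, and an enhancer that becomes accessible often lies far from the gene it serves. Growth factor signals through the MEK and ERK kinases, and the transcriptional regulators AP-1 and YAP, are known for keeping cultured hepatocytes in a less mature state.

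Few opened regions overlapped a promoter window in the tables used. These are shown first because there the region and the gene can be paired without distance. Protein-coding genes had 16 RefSeq promoter windows (GRCm38.p6, 250 bases before to 50 after a start site) that overlapped an opened region, belonging to 14 genes. The 250 bases before the start are printed 5′ to 3′ on the gene's strand for Abcb11, the bile salt export pump (chr2:69342617-69342866, minus strand), Abcg5, a sterol transporter (chr17:84683012-84683261, minus strand), the retinaldehyde dehydrogenase Aldh1a1 (chr19:20601718-20601967, plus strand) and its paralog Aldh1a7 (chr19:20727557-20727806, minus strand). Capitals mark matches to any of 10 searched motifs, on either strand.
Abcb11: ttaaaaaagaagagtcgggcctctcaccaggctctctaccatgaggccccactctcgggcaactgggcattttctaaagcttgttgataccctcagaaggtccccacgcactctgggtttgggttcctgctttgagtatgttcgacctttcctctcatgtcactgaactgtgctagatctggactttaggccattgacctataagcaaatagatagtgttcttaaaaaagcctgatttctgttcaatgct
Abcg5: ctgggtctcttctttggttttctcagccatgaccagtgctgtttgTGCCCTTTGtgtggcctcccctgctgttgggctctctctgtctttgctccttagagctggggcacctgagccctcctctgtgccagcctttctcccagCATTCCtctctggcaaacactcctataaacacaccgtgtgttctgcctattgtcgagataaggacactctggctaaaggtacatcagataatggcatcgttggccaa
Aldh1a7: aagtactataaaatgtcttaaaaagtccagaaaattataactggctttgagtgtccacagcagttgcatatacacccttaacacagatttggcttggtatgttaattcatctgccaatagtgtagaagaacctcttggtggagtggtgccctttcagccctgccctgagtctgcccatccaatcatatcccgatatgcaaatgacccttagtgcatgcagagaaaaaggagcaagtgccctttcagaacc
Aldh1a1: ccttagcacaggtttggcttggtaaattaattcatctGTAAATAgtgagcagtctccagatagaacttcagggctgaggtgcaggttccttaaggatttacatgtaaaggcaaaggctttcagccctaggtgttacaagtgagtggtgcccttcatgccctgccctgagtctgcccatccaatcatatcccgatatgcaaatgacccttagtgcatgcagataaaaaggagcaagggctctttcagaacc

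In the Abcg5 stretch the capitals are a match to the HNF4 motif CAAAGNNCA on the reverse strand and a match to the TEAD motif CATTCC. The capitals in Aldh1a1 are the forkhead motif TATTTAC on the reverse strand, and the Abcb11 and Aldh1a7 stretches hold no match. The opened region at Abcg5 also covers the start of Abcg8, its partner in sterol export, on the opposite strand. Aldh1a1 and Aldh1a7 are neighbouring paralogs, and their stretches share an identical run of 65 bases that spans 94 to 30 bases before each start, so reads and peaks there may not be told apart. Among the 16 windows, CAAAGNNCA was found in 4 (25.0%), against 5.75% of all 21263 promoter windows. CATTCC was found in 4 (25.0%, against 13.6%), the ETS motif CCGGAAG in 3 (18.8%, against 11.6%), the forkhead motifs TGTTTAC and TATTTAC in 2 each (against 3.01% and 2.59%). The windows of Abcg5 and Abcg8, the 2 windows of Crb3 and the 2 windows of Etnppl overlap within each pair. The 16 windows are therefore not all separate stretches. The CATTCC matches are 3 distinct sites and the CCGGAAG matches 2. The CEBP motif TTGCNNAA and the AP-1 motif TGANTCA each occurred in 2 windows (against 10.2% and 6.99%). The shorter of the HNF1 motifs searched occurred in 1 window (6.25%, against 0.372%), and the full HNF1 palindrome, which contains it, and the DR1 motif of nuclear receptor dimers in 0. The median GC content of the 16 windows was 49.3%, against 56.3% for all promoter windows, 60.0% for those under regions that closed with PD and 62.3% for those under regions open in all 8 cultured libraries.

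The peak calls and scores that chose the regions are given only as a description. A peak score is the authors' own value, and the lowest in the files is 50. For each opened region the lowest of its 4 PD scores ran from 50.01 to 229.52, with a median of 66.3. Just outside the rule, 938 regions had a peak in 3 of 4 PD libraries and no control, with a median lowest PD score of 59.07, and 695 had a peak in 4 PD libraries and in 1 control, with a median of 67.88. Among the latter, a region 14023 bases from the fatty acid binding protein gene Fabp1 (chr6:71184959-71185856) had a lowest PD score of 211.62 and a control score of 57.67. The opposite rule, a peak in all 4 controls and in no PD library, gave 1601 closed regions. With the same number of peaks taken from each library the order turned, with 1504 opened and 765 closed. Leaving out 1 library drops a condition of the rule, which by itself tends to raise the number of opened regions. It was 1203 without Pard3WT control replicate 2 and 1251 without Pard3HMKO PD replicate 1. It was 790 to 1031 without each of the other 6 in turn.

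The PD libraries had 24270, 27525, 24330 and 31877 peaks and the controls 35879, 45898, 26293 and 35301. The means were 27000.5 and 35842.75 and the ranges overlapped (two-sided exact permutation test with the genotypes pooled, p = 0.0857). These are the libraries that the rule used, so the test describes their peak numbers only and is no support for the opened regions. Each ATAC library was made from 1000 cells and the deposited files hold peaks only, so read depth is unknown. Peaks within 1 kb of the start sites of hepatocyte marker genes were present for 5 to 8 of 8 genes in every group. Peaks were counted only for markers with an annotated start site. These were 8 of 10 hepatocyte, 8 of 12 macrophage and leukocyte and 8 of 12 endothelial genes, while RNA sums use all genes of a list. The Pard3WT controls had peaks at 4 of 8 macrophage and leukocyte markers (Cd68, Laptm5, Lyz2 and Ptprc), the other cultured groups at 0 or 1. The same controls had peaks at 2 and 3 of 8 endothelial markers (Eng, Kdr and, in 1 library, Fcgr2b), all 4 PD libraries at 0 and the other cultured libraries at 0 or 1. In RNA the macrophage markers summed to 49.5 to 50.0 CPM (counts scaled to the library's total) in Pard3WT controls and 6.26 to 9.10 with PD, and to 53.5 to 60.1 and 27.6 to 46.4 in Pard3HMKO. Erythroid markers summed to 14.0 to 23.5 in Pard3WT controls and 85.4 to 120 with PD, and Pard3HMKO control replicate 1 stood apart at 757. Hepatocyte markers summed to 46366 to 50236 in Pard3WT controls and 50505 to 55473 with PD, but to 14303 to 15590 and 37610 to 40572 in Pard3HMKO. The part of these other cells in the results below was not tested. Each ATAC library pools its cells, and the RNA counts of single cells were summed per library here. Fewer cells of a type and less RNA per cell were therefore not told apart. Counts over the whole gene do not check the deletion of some exons. Pard3 averaged 87.4 CPM in cultured Pard3WT controls and 61.8 in Pard3HMKO controls, but 22.03 and 31.3 in the E17.5 RNA libraries, where the ranges of the 2 groups overlapped. Yap1 averaged 179 CPM in cultured YapWT controls and 4.43 in YapHMKO controls, but 28.1 in E17.5 YapWT RNA libraries and 44.6 in those labelled YapHMKO, against the label, so the latter group is called the libraries labelled YapHMKO.

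Few opened regions lay close to an annotated start site. The tables used held start sites for 17492 of 21900 protein-coding genes and for none on chromosome 18. A start site missing from them can lengthen the distances given here, in each set of regions. Of 737 opened regions for which start sites were annotated in the tables used, 13 (1.76%) lay on a start site and 27 (3.66%) within 1 kb of one, against 18.0% of all regions, 8.52% of closed regions and 53.2% of regions open in all 8 libraries. At 1 to 5 kb lay 95 (12.9%), against 6.69% of all and 5.07% of closed regions. The fullest bin was 10 to 50 kb, with 286 regions (38.8%, against 34.4% of all regions), and 130 (17.6%, against 18.4%) lay farther than 100 kb, shares near those of all regions. The median distance was 24.0 kb, against 35.4 kb for closed regions and 22.5 kb for all. Median width was 587 bases (258 to 5852). The span of a protein-coding gene overlapped 484 of the 766 (63.2%, against 64.3% of all regions). Another 162 lay farther than 10 kb from any gene, and the 604 others (78.9%, against 76.7% of all) lay within 10 kb of 572 genes. Of these genes, 30 had at least 2 opened regions. Aldh1a1 and Nos1ap, an adaptor of nitric oxide synthase, had 3 each.

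**Figure D1:**
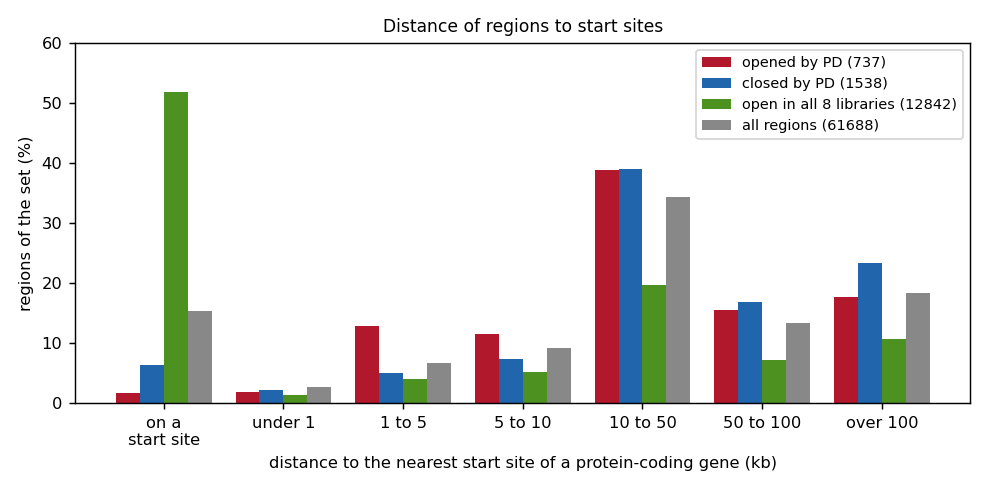
Percent of regions (vertical axis) by distance to the nearest annotated start site of a protein-coding gene (horizontal axis, kb bins). The sets are opened regions, closed regions, regions open in all 8 cultured libraries and all regions. Opened regions are sparse in the bins up to 1 kb (3.66% together) and most frequent at 10 to 50 kb (38.8%).

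Opened regions were often open in uncultured E17.5 hepatocytes, and less often in Pard3HMKO libraries. In the 3 Pard3WT libraries 64.9%, 68.9% and 63.7% of the 766 had a peak, a mean of 65.8% ± 2.74 (SD, n = 3). In the 3 Pard3HMKO libraries the share was 33.6%, 36.3% and 38.8%, a mean of 36.2% ± 2.61. The groups did not overlap and differed by -29.6 percentage points, with p = 0.1 in a two-sided exact permutation test, the smallest that 3 against 3 libraries allow. YapWT libraries had 73.8%, 68.9% and 66.4% (69.7% ± 3.72, n = 3) and the libraries labelled YapHMKO 41.6%, 51.7% and 43.6% (45.6% ± 5.33, n = 3). They too did not overlap, with a difference of -24.1 points (exact permutation test, p = 0.1). Across all 63719 regions the shares were 45.5% in Pard3WT and 43.6% in Pard3HMKO (difference -1.95 points, p = 0.3 by the exact permutation test), and 44.9% and 43.0% in the Yap line (difference -1.90, exact permutation p = 0.4). The opened regions were therefore 1.42 to 1.48 times as often open as all regions in Pard3WT libraries and 0.767 to 0.881 times in Pard3HMKO libraries. All regions include many with a peak in few cultured libraries. Another 2605 regions, called mixed regions, had a peak in 4 of the 8 cultured libraries in any other mix. Of these, 53.9%, 60.5% and 50.1% had a peak in the Pard3WT libraries and 50.0%, 49.2% and 51.1% in the Pard3HMKO libraries. Regions just outside the rule went the same way as the opened regions. Mean shares in E17.5 libraries without a deletion and in those labelled HMKO were 67.8% and 40.9% for opened regions. With a peak in 3 of 4 PD libraries and no control they were 57.6% and 30.5%. With a peak in 4 PD libraries and 1 control they were 76.4% and 53.6%. Peaks per library averaged 41176 in Pard3WT and 40510 in Pard3HMKO.

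Closed regions went the other way. They had a peak in 16.01% ± 2.60 of cases in Pard3WT and 29.7% ± 1.20 in Pard3HMKO, and in 14.6% ± 1.66 in YapWT and 25.8% ± 0.594 in the libraries labelled YapHMKO (n = 3 each, exact permutation p = 0.1 for each line). Regions open in all 8 cultured libraries stood at 93.6% and 93.0%, and at 93.9% and 93.5%. Peaks at the start sites of biliary markers differed between the same E17.5 groups: 4 to 6 of 6 markers, among them Cldn4, Spp1, Krt7 and Cftr, had one in Pard3HMKO libraries and 4 in the libraries labelled YapHMKO, against 2 in Pard3WT and 1 or 2 in YapWT. These 6 are the markers with an annotated start site, of 10 in the list. RNA of all 10 biliary markers at E17.5 summed to 158 to 161 CPM in Pard3WT and 128 to 131 in Pard3HMKO. Hepatocyte marker RNA summed to 480476 to 531308 and 191856 to 253523. Their part in the difference of the opened regions was not tested.

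**Figure D2:**
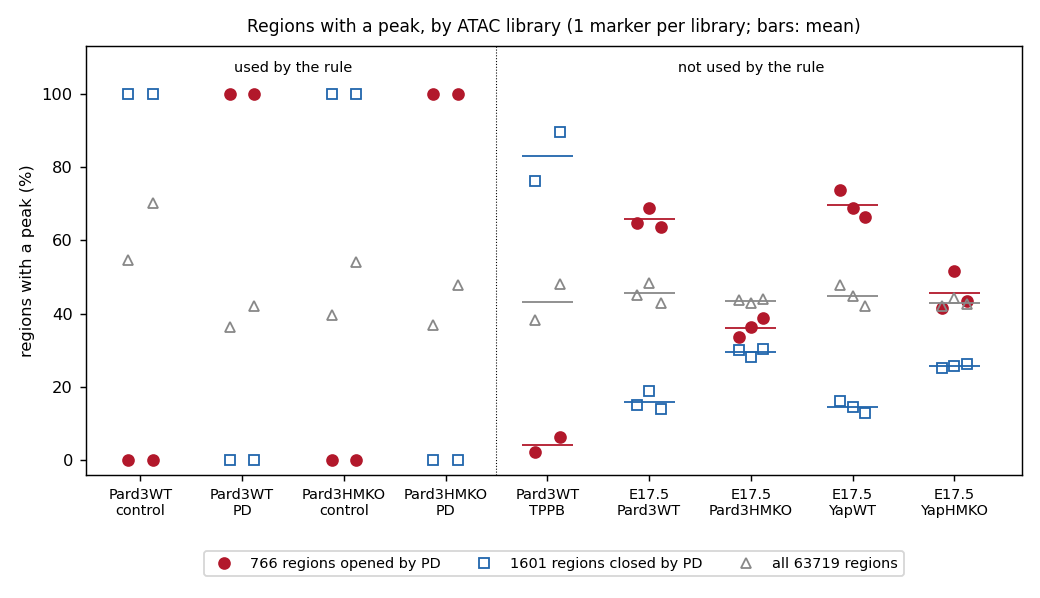
Percent of regions with a peak (vertical axis) in each ATAC library (horizontal axis) for the 766 opened regions (red circles), the 1601 closed regions (blue squares) and all 63719 regions (grey triangles). Libraries left of the dotted line were used by the rule. At E17.5 the red circles lie at 63.7% to 73.8% in the libraries without a deletion and at 33.6% to 51.7% in the others.

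Peak scores moved with peak presence. Among opened regions with a peak, the median score averaged 116 ± 4.44 in E17.5 Pard3WT libraries and 83.3 ± 2.73 in Pard3HMKO libraries (n = 3 each). The difference in share was seen at all distances from annotated start sites. It was 82.7% against 51.9% for the 27 regions within 1 kb of a start site, 62.9% against 32.3% for the 466 at 1 to 50 kb, and 67.8% against 40.2% for the 244 beyond. With the opened regions divided into 4 groups of like size by PD score, the shares were 63.7% and 34.4% in the lowest group and 71.0% and 42.0% in the highest.

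By region, 493 of the 766 (64.4%, against 22.6% of all regions) had a peak in more of the 6 E17.5 libraries without a deletion than of the 6 labelled HMKO, 60 (7.83%, against 17.4%) in fewer, and 213 in as many. A peak was seen in all 12 libraries for 88 (against 23.6% of all regions) and in none for 104 (13.6%, against 32.7%), so 662 (86.4%) were open in at least 1 E17.5 library. All 6 libraries without a deletion had a peak at 370 regions (48.3%, against 32.3%). All 3 Pard3WT and none of the Pard3HMKO libraries had one at 88 regions (against 2.46% of all), and the reverse held for 11 (1.44%, against 2.32%). In the Yap line these counts were 61 (7.96%, against 1.83%) and 8 (1.04%, against 1.91%). Both lines together left 26 regions open in all 6 and in none of the 6 labelled HMKO (3.39%, against 0.672%) and 3 of the opposite kind (0.392%, against 1.14%). The 26 include regions beside Cat, the peroxisomal enzyme catalase (chr2:103493826-103494334), and Mat1a, the hepatic methionine adenosyltransferase (chr14:41100548-41101257). The 3 opposite regions have Rbm47, Ets2 and Bahcc1 as nearest genes. These 5 genes were picked after their values were seen.

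**Figure D3:**
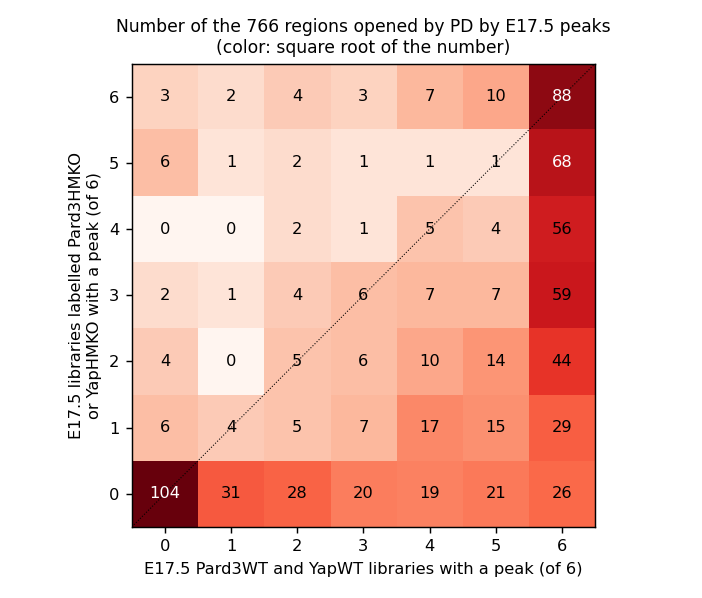
Number of opened regions by how many of the 6 E17.5 libraries without a deletion (0 to 6, first axis) and of the 6 libraries labelled HMKO (0 to 6, the other axis) had a peak. The corners hold 104 regions with none, 88 with all 12, 26 open only where nothing was deleted and 3 open only in the libraries labelled HMKO.

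TPPB, given alone to Pard3WT cultures, left nearly all opened regions without a peak. The 2 TPPB libraries had a peak at 17 (2.22%) and 49 (6.40%) of the 766, while 38.3% and 48.3% of all regions and 76.3% and 89.7% of closed regions had one. Both libraries had a peak at 13 opened regions (1.70%), and neither at 713 (93.1%). There is no test here, since the rule fixed the controls at no peak.

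The opened regions with the highest scores lay near genes of several kinds. The highest lowest-score belonged to chr7:135985856-135986588, 269406 bases from Mki67, with 294.27 and 471.11 in Pard3WT PD and 229.52 and 299.2 in Pard3HMKO PD. It had a peak in all 6 E17.5 libraries without a deletion, in 1 of 3 Pard3HMKO libraries and in 3 of 3 labelled YapHMKO. A region within Cblb (chr16:52071592-52072451), a ubiquitin ligase that acts on growth factor receptors, had PD scores of 299.48, 291.31, 215.65 and 320.53 in the same order and was open in the same number of E17.5 libraries of each group. A wide region of 5134 bases overlaps the glutathione transferase gene Gstm3 (chr3:107962081-107967214), 1960 bases from its start site. Its PD scores were 208.05, 244.99, 239.04 and 388.62. It had a peak in only 1 of 3 Pard3WT and 2 of 3 Pard3HMKO libraries at E17.5. The region 488 bases from Cyp2j5 (chr4:96664659-96665527), a P450 that makes epoxides of fatty acids, scored 180.17, 320.36, 235.38 and 288.85 and was open in 11 of 12 E17.5 libraries. The others of the 12 strongest lay within Npc1 and Fxyd1, 7070 bases from Hrob, and farther from Scaf8, Aldh1a7, Acsl1, Hes1 and Tmem243.

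Among opened regions with a peak in all 12 E17.5 libraries, the strongest lay in Fxyd1 (chr7:31055212-31056303), in Bcar3, in Tor3a, near Tcim, and 5176 bases from the start of Ass1, the urea cycle enzyme argininosuccinate synthase (chr2:31464200-31465094, nearest gene span Hmcn2). The Ass1 region scored 570.23, 696.36 and 481.27 in E17.5 Pard3WT libraries and 213.31, 227.65 and 218.36 in Pard3HMKO, without overlap. Among those with no peak in any E17.5 library, strong ones lay 3380 bases from Gstm2, another glutathione transferase (chr3:107977565-107978322), in Ttc28, 655 bases from Pex11a, a peroxisome division protein (chr7:79734464-79735302), in Twf1 and near Ccl6. These 5 regions were open in all 4 PD cultures and in none of the 12 uncultured libraries.

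RNA of the genes beside the opened regions rose with PD more often than RNA of all genes. Of the 572 genes, 566 were in the count table and 522 passed the filter on low counts. In Pard3WT, 124 of the 522 rose with PD (23.8%, against 7.99% of all 16715 genes tested) and 26 fell (4.98%, against 6.80%), with edgeR's quasi-likelihood test and Benjamini-Hochberg adjusted p below 0.05. In Pard3HMKO, 153 rose (29.3%, against 9.01%) and 13 fell (2.49%, against 5.51%). The median log2 fold change of the 522 was 0.50 and 0.54, against -0.03 and 0.00 over all genes tested. In both genotypes 105 rose (20.1%, against 5.45%) and 4 fell (0.766%, against 2.35%), and 0 moved in opposite directions (0.0419% of all genes). In Pard3WT, 99 rose and 13 fell without PD replicate 1, and 107 and 14 without PD replicate 2. In Pard3HMKO, 111 rose and 7 fell without PD replicate 2, 131 and 7 without PD replicate 1, 109 rose and 1 fell without control replicate 2, and 115 rose and 12 fell without control replicate 1, the library with the high erythroid marker sum. Genes near closed regions numbered 64 higher and 108 lower of 831 in Pard3WT, with a median of -0.29. In Pard3HMKO more of these 831 genes rose than fell, with 85 higher and 65 lower and a median of -0.12.

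The share of genes that rose in both genotypes varied with the place of the region. It was 13 of 26 genes (50.0%) where the region lay within 1 kb of a start site, with median log2 fold changes of 2.31 in Pard3WT and 3.91 in Pard3HMKO. It was 85 of 424 (20.0%) where the region overlapped the gene's span and 23 of 104 (22.1%) where it lay outside it. From the lowest to the highest of 4 groups by PD score it was 17.6%, 12.3%, 22.1% and 28.1%. Genes with at least 2 opened regions gave 8 of 29 (27.6%).

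**Figure D4:**
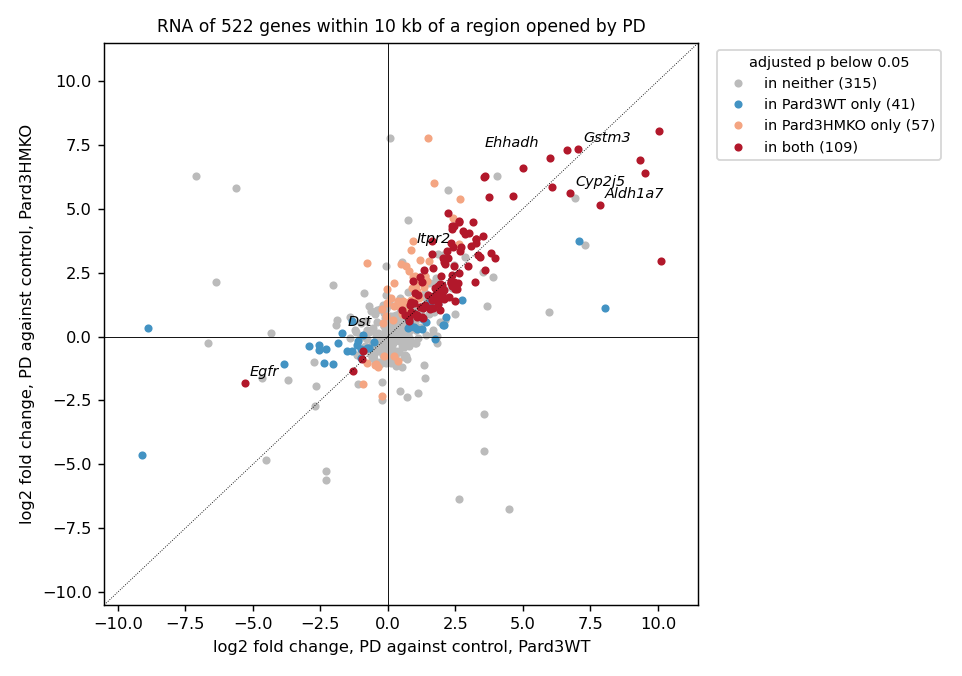
Log2 fold change of RNA with PD in Pard3WT (horizontal axis) and in Pard3HMKO (vertical axis) for the 522 tested genes within 10 kb of an opened region, coloured by the lines in which edgeR called a change. Of the points, 109 are called in both, 41 in Pard3WT only, 57 in Pard3HMKO only and 315 in neither.

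Described here are 9 of the 10 genes with the firmest rise in both genotypes, most of which act in fatty acid and retinoid metabolism or bile export. Acot2, a mitochondrial acyl-CoA thioesterase (region chr12:83993437-83995739), stood at 476 and 474 CPM in Pard3WT controls and 7074 and 6354 with PD, and at 365 and 303 against 3106 and 3303 in Pard3HMKO. The groups did not overlap, and the log2 fold changes were 3.82 ± 0.19 and 3.26 ± 0.19 (edgeR adjusted p = 5.38e-10 and 1.36e-09). Its region had no peak in any E17.5 library. Cyp2j5 RNA, beside the region described above, stood at 1.52 and 0.914 CPM in Pard3WT controls and 94.9 and 174 with PD, and at 1.10 and 1.82 against 53.9 and 91.3 in Pard3HMKO. It rose by 6.73 ± 0.46 and 5.62 ± 0.42 on the log2 scale (edgeR adjusted p = 3.78e-09 and 6.06e-09).

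Ehhadh, the peroxisomal bifunctional enzyme of fatty acid oxidation (region chr16:21759438-21760645), stood at 77.4 and 70.9 CPM in Pard3WT controls and 4723 and 4715 with PD, and at 20.5 and 21.2 against 2411 and 2942 in Pard3HMKO. All PD libraries lay above all controls, with log2 fold changes of 5.99 ± 0.34 and 7.00 ± 0.35 (edgeR adjusted p = 1.04e-08 and 2.93e-09). Its region, with PD scores of 71.07 to 134.75, had no peak at E17.5. Decr1, a mitochondrial reductase needed to oxidise unsaturated fatty acids (region chr4:15937825-15938740), stood at 88.4 and 49.1 CPM in Pard3WT controls and 711 and 695 with PD, and at 53.4 and 31.3 against 360.4 and 419 in Pard3HMKO. The log2 fold changes were 3.35 ± 0.26 and 3.20 ± 0.26 (edgeR adjusted p = 1.41e-08 and 1.67e-08), again without overlap. Its region was open in 11 of 12 E17.5 libraries.

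Fabp1, the liver fatty acid binding protein, has a wide opened region (chr6:71202944-71207437) with no peak at E17.5. Its RNA stood at 2112 and 1733 CPM in Pard3WT controls and 47680 and 47426 with PD, and at 522 and 437 against 18647 and 24691 in Pard3HMKO. The groups were separate, with log2 fold changes of 4.63 ± 0.29 and 5.50 ± 0.30 (edgeR adjusted p = 1.14e-07 and 2.41e-08). Mtarc1, a mitochondrial reductase (region chr1:184809296-184810275), rose by 2.79 ± 0.24 in Pard3WT and 4.13 ± 0.26 in Pard3HMKO on the log2 scale (adjusted p = 5.63e-08 and 9.43e-10). Gpd1, the cytosolic glycerol-3-phosphate dehydrogenase (region chr15:99718210-99719154, open in all 12 E17.5 libraries), rose by 3.16 ± 0.28 and 4.47 ± 0.30 (adjusted p = 9.53e-08 and 2.11e-09).

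Aldh1a1, the retinaldehyde dehydrogenase whose promoter is printed above, has opened regions at chr19:20529893-20530764, chr19:20552300-20552881 and, over its start site, chr19:20601637-20602218. Its RNA stood at 4.29 and 9.66 CPM in Pard3WT controls and 677 and 684 with PD, and at 1.89 and 1.58 against 184 and 367 in Pard3HMKO. PD libraries lay above all controls, with log2 fold changes of 6.64 ± 0.50 and 7.31 ± 0.52 (edgeR adjusted p = 1.30e-07 and 5.40e-08). Its paralog Aldh1a7, with an opened region over its start (chr19:20727327-20727928), stood at 2.50 and 1.96 CPM in Pard3WT controls and 620.3 and 421 with PD, and rose by 7.84 ± 0.75 (adjusted p = 4.42e-06) there and 5.14 ± 0.64 (adjusted p = 4.72e-05) in Pard3HMKO. How reads were divided between these similar genes is not known here.

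The 4 genes that fell in both genotypes were Egfr, Hnrnpf, Rbfox2 and Sumo3. Egfr, the epidermal growth factor receptor (region chr11:16900797-16901457), stood at 34.3 and 45.4 CPM in Pard3WT controls and 0.924 and 1.07 with PD, and at 49.0 and 61.1 against 8.69 and 22.7 in Pard3HMKO. PD libraries lay below controls in both, with log2 fold changes of -5.31 ± 0.58 (edgeR adjusted p = 1.18e-06) and -1.82 ± 0.45 (adjusted p = 0.0081). The fall in Pard3HMKO was not called without control replicate 2 or without PD replicate 1 of that line. Hnrnpf and Rbfox2, both splicing regulators, changed by -0.95 ± 0.20 and -1.3 ± 0.29 in Pard3WT (adjusted p = 0.0017 and 0.00344) and by -0.88 ± 0.20 and -1.34 ± 0.29 in Pard3HMKO (adjusted p = 0.00311 and 0.00243). Each lost its call without Pard3WT PD replicate 2 in the first line, or Pard3HMKO control replicate 2 in the second. Sumo3, a protein modifier, changed by -0.91 ± 0.18 and -0.57 ± 0.18 (adjusted p = 0.00149 and 0.0393), and the second call held under 3 of 8 alternatives.

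**Figure D5:**
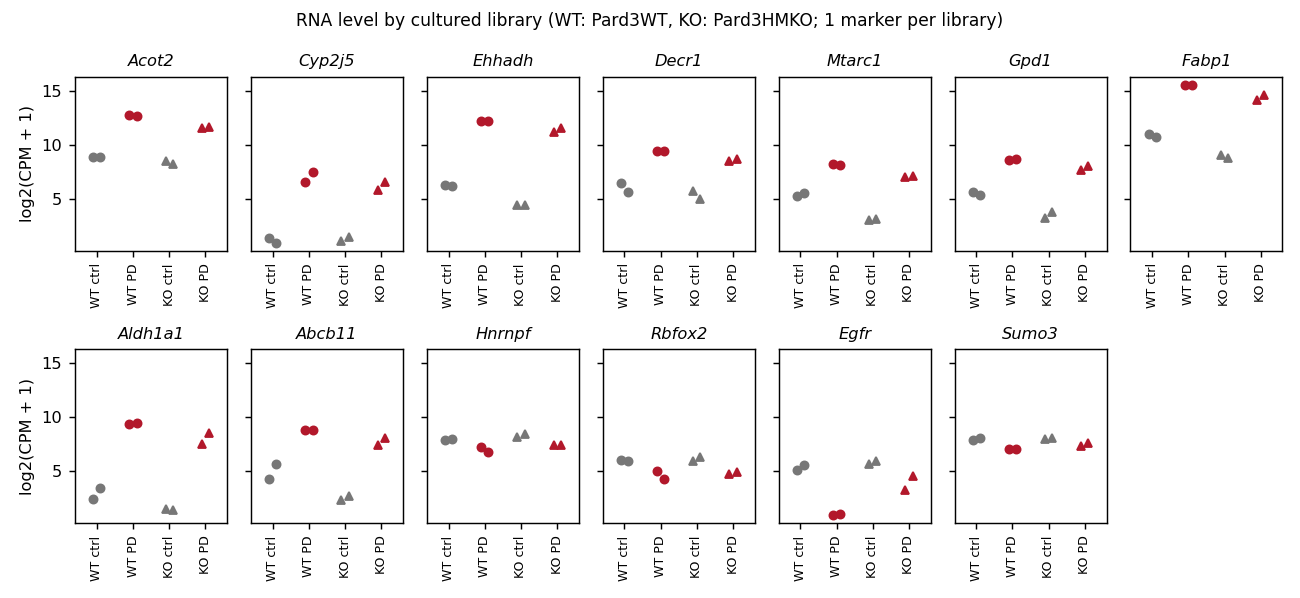
RNA level as log2(CPM + 1) (vertical axis) in each cultured library (horizontal axis, points coloured by group) for 9 genes that rose and the 4 that fell in both genotypes, each in its own panel. In the 9 rising genes each PD point lies above each control point of its genotype, and in Egfr each lies below.

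The counts of list genes beside opened regions that follow can be read against all protein-coding genes, of which 572 of 21900 (2.61%) lay within 10 kb of one. The RNA calls of the lists can be read against all 16715 genes tested. Of those, 7.99% rose and 6.80% fell with PD in Pard3WT, and 9.01% rose and 5.51% fell in Pard3HMKO. Bile acid and sterol transport genes had opened regions at 4 of the list's 20 tested members, and across the list 9 rose and 0 fell with PD in Pard3WT and 12 rose and 0 fell in Pard3HMKO. Abcb11, the bile salt export pump (region chr2:69342371-69343300, over the start site printed above, PD scores 150.74 to 279.82), stood at 18.9 and 48.7 CPM in Pard3WT controls and 451 and 454 with PD, and at 3.98 and 5.70 against 168 and 263 in Pard3HMKO. The groups did not overlap, with log2 fold changes of 3.75 ± 0.33 and 5.47 ± 0.36 (edgeR adjusted p = 1.33e-07 and 3.05e-09). At E17.5 its region was open in 3 of 3 Pard3WT and 1 of 3 Pard3HMKO libraries. Abcg5, which exports sterols into bile (region chr17:84682658-84683314, open in 1 of 12 E17.5 libraries), stood at 2.06 and 7.70 CPM in Pard3WT controls and 56.4 and 60.6 with PD, and rose by 3.61 ± 0.67 (adjusted p = 0.000695) and, in Pard3HMKO, by 6.29 ± 0.78 (adjusted p = 5.76e-06). Nr1h4, the bile acid receptor FXR (region chr10:89470594-89471369, open in 2 of 3 libraries of each E17.5 group), stood at 15.7 and 17.0 CPM and 197 and 175 with PD, and rose by 3.51 and 3.93 on the log2 scale (adjusted p = 1.59e-05 and 4.88e-06). Baat, which conjugates bile acids (region chr4:49502934-49504013), rose in Pard3HMKO by 3.73 ± 0.51 (adjusted p = 5.58e-05) and had a log2 fold change of 0.94 ± 0.46 (adjusted p = 0.204) in Pard3WT.

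Of 18 tested fatty acid oxidation genes, 16 rose and 0 fell with PD in Pard3WT and 18 rose in Pard3HMKO. The opened regions lay beside 3 of them, Ehhadh, Cpt2 and Acaa2. Cpt2, the inner membrane carnitine acyltransferase (region chr4:107921186-107922446), stood at 17.3 and 18.8 CPM in Pard3WT controls and 171 and 168 with PD, and at 23.8 and 15.8 against 81.4 and 90.7 in Pard3HMKO. PD libraries lay above controls, with log2 fold changes of 3.23 ± 0.36 and 2.12 ± 0.34 (edgeR adjusted p = 1.30e-06 and 0.000113). Its region was open at E17.5 in 4 of 6 libraries without a deletion and in 0 of 6 labelled HMKO. Acaa2, the mitochondrial thiolase, rose by 2.84 and 4.03 (adjusted p = 0.000513 and 2.96e-05), and its region had no peak at E17.5. The peroxisomal gene Pex11a, whose region also had none, rose as well. It stood at 56.3 and 43.9 CPM in Pard3WT controls and 464 and 502 with PD, with log2 fold changes of 3.27 and 3.81 in the 2 genotypes (adjusted p = 5.45e-06 and 1.02e-06).

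For lipoproteins and lipases 13 of 22 tested genes rose and 2 fell in Pard3WT, and 17 rose and 0 fell in Pard3HMKO, with opened regions beside 3. Lipc, hepatic lipase (region over its start site, chr9:70934470-70935269, open in 10 of 12 E17.5 libraries), stood at 68.8 and 71.5 CPM in Pard3WT controls and 210.3 and 229.7 with PD, and at 7.49 and 12.3 against 112 and 156 in Pard3HMKO. It rose in both, by 1.65 ± 0.32 and 3.75 ± 0.35 on the log2 scale (edgeR adjusted p = 0.00102 and 1.46e-07), and the 2 PD effects differed by 2.11 ± 0.45 (adjusted p = 0.0265 for the interaction). Apoc3, an inhibitor of lipoprotein lipase (region chr9:46235158-46236024), rose by 3.09 and 3.55 (adjusted p = 6.03e-05 and 1.86e-05). Scarb1, the HDL receptor, has 2 opened regions (chr5:125286066-125286623 and chr5:125330103-125330737), yet its RNA stood at 45.5 and 53.9 CPM in Pard3WT controls and 57.2 and 61.7 with PD, and its log2 fold changes of 0.26 and 0.48 were not called (adjusted p = 0.593 and 0.281).

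Detoxifying enzymes gave 2 opened regions among 26 tested P450 genes, of which 9 rose and 0 fell in Pard3WT and 14 rose and 0 fell in Pard3HMKO. Cyp3a25 (region chr5:146018203-146018806) stood at 6.79 and 1.31 CPM in Pard3WT controls and 235 and 347 with PD, and rose by 6.09 ± 0.79 and 5.84 ± 0.77 on the log2 scale (edgeR adjusted p = 7.57e-05 and 8.08e-05). Its relative Cyp3a16, also beside an opened region, was not called (adjusted p = 0.702 and 0.408), and reads may be shared within this gene family. Gstm3 stood at 121 and 61.6 CPM in Pard3WT controls and 11360 and 13050 with PD, and at 32.0 and 42.1 against 7102 and 4962 in Pard3HMKO. It rose by 7.06 ± 0.64 and 7.35 ± 0.65 (adjusted p = 4.86e-06 and 3.08e-06), while the near copy Gstm2 was not called (log2 fold changes 2.85 and 3.11, adjusted p = 0.0932 and 0.0777). These assignments are uncertain where the copies share sequence.

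Other metabolic genes with an opened region included Haao, C8b and Gpt. Haao, an enzyme of tryptophan breakdown (region chr17:83845506-83846257), was the gene beside an opened region in the list of 19 urea cycle and amino acid genes, of which 12 rose and 0 fell in Pard3WT and 14 rose and 0 fell in Pard3HMKO. It rose by 2.68 and 3.33 on the log2 scale (edgeR adjusted p = 7.37e-07 and 5.02e-08). C8b, a complement subunit (region chr4:104779543-104779800), rose by 2.02 and 3.06 (adjusted p = 0.00295 and 8.56e-05), among 24 complement and coagulation genes with 6 higher and 3 lower in Pard3WT and 16 higher in Pard3HMKO. Gpt, an alanine aminotransferase, was not called in either (adjusted p = 0.182 and 0.467). Of 12 gluconeogenesis and glucose genes 7 rose and 0 fell in each genotype, of 20 hepatocyte maturation genes 10 rose in Pard3WT and 16 in Pard3HMKO, and of 23 hepatocyte transcription factors 5 rose and 1 fell, and 9 rose and 1 fell.

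Growth factor and signalling genes moved less uniformly. Of 21 insulin and growth factor genes 3 rose and 3 fell in Pard3WT and 11 rose and 1 fell in Pard3HMKO, with opened regions beside Egfr, Insr, Grb10, Igf1 and Lepr. Insr, the insulin receptor (region chr8:3187300-3187864, no peak at E17.5), stood at 39.8 and 39.2 CPM in Pard3WT controls and 91.3 and 61.8 with PD, and rose by 0.96 ± 0.29 and 1.304 ± 0.29 (edgeR adjusted p = 0.0268 and 0.0029). Grb10, an adaptor that restrains insulin signalling, rose by 1.09 ± 0.23 in Pard3HMKO (adjusted p = 0.0018) and had -0.20 in Pard3WT (adjusted p = 0.619). Igf1, with a region open in all 12 E17.5 libraries (chr10:87906758-87907324), was near 1 CPM in culture and not called. ERK feedback genes fell with PD, 12 of 18 in Pard3WT and 8 of 18 in Pard3HMKO, and 0 rose. Spred1, a feedback inhibitor of that pathway and its member with an opened region (chr2:117122671-117123482), stood at 26.9 and 14.9 CPM in Pard3WT controls and 2.67 and 0.214 with PD, a change of -3.84 ± 0.79 (adjusted p = 0.0017), and at 24.9 and 28.3 against 11.486 and 14.1 in Pard3HMKO (-1.06, adjusted p = 0.359). Of 15 YAP target genes 4 fell and 0 rose in each genotype (6.80% of all genes tested fell in Pard3WT and 5.51% in Pard3HMKO). Amotl2, an angiomotin and a YAP target (region chr9:102723824-102724734, open in all 12 E17.5 libraries), changed by -1.85 ± 0.40 in Pard3HMKO (adjusted p = 0.00262) and by -0.93 ± 0.40 in Pard3WT (adjusted p = 0.14).

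Cell junction and polarity genes had opened regions at Gjb2, Crb3 and Pard3b, and of 20 tested 3 rose and 3 fell in Pard3WT and 5 rose and 0 fell in Pard3HMKO. Gjb2, the gap junction protein connexin 26 (region chr14:57096675-57098631, no peak at E17.5), stood at 225 and 179 CPM in Pard3WT controls and 1002 and 1148 with PD, and rose by 2.41 ± 0.35 and 3.51 ± 0.37 (edgeR adjusted p = 0.000133 and 3.66e-06). Pard3b, a relative of Pard3 (region chr1:61649800-61650494), rose in Pard3HMKO by 2.19 (adjusted p = 0.0167) and had 1.45 in Pard3WT (adjusted p = 0.117). Crb3, an apical polarity protein, has a region over its start site (chr17:57061929-57062774) that was open in all 12 E17.5 and in both TPPB libraries, and its RNA was not called (log2 fold changes 0.49 and 0.66, adjusted p = 0.448 and 0.295). Of 16 fetal and hepatoblast genes 1 rose and 4 fell in Pard3WT and 2 rose and 3 fell in Pard3HMKO. The 3 beside an opened region, Igf2bp2, Igf2bp3 and Cdh2, were not called in either.

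Alb and Afp, the albumins of the adult and fetal liver, had log2 fold changes of -0.56 (adjusted p = 0.167) and -0.73 (adjusted p = 0.132) in Pard3WT. In Pard3HMKO Alb rose by 0.89 (edgeR adjusted p = 0.0278) and Afp had 0.24 (adjusted p = 0.679).

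The same 522 genes were also tested for a change with PD in the Yap line, whose libraries the rule did not use. There 130 rose (against 8.77% of all genes) and 33 fell (against 8.73%) in YapWT, with a median log2 fold change of 0.37 against -0.03. In YapHMKO 178 rose (against 11.2%) and 37 fell (against 8.76%), with a median of 0.57 against -0.05. Marker sums moved with PD here as well. In YapWT, macrophage markers summed to 174 and 379 CPM in controls and 10.3 and 19.0 with PD, and erythroid markers to 4.30 and 6.37 against 337 and 58.5. In YapHMKO, hepatocyte markers summed to 16496 and 19797 in controls and 62006 and 62494 with PD. Their part in these counts was not tested. In all 4 lines 84 genes rose (16.1%, against 4.15%). U0126 in Pard3WT raised 116 (against 7.39%) and lowered 19 (against 5.74%), with a median of 0.39 against -0.02. In Pard3HMKO it raised 170 (against 10.3%) and lowered 25 (against 7.48%), with a median of 0.58 against -0.08. The U0126 and PD comparisons of a genotype share their control libraries, so their likeness is not a separate result. Ehhadh had log2 fold changes of 5.99 with PD and 5.89 with U0126 in Pard3WT, and Aldh1a1 6.64 and 6.52.

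TPPB lowered 71 of the 522 genes in Pard3WT (against 5.35% of all genes) and raised 6 (against 1.44%), with a median of -0.23 against 0.00. The raised genes numbered 20 with no filter on low counts and 12 with DESeq2. Hepatocyte markers summed to 8702 and 8539 CPM in these TPPB libraries, against 46366 to 50236 in the controls, and their part was not tested. Abcb11 changed by -3.88 (edgeR adjusted p = 4.31e-07), Fabp1 by -3.84 (adjusted p = 7.30e-07) and Haao by -5.31 (adjusted p = 5.22e-09). Pard3HMKO controls against Pard3WT controls gave 67 lower (against 3.36%) and 6 higher (against 1.54%), with a median of -0.23 against 0.01. The 6 became 18 with no filter, 9 with DESeq2 and 3 with the replicate block. Both comparisons use the Pard3WT controls of the PD comparison, so they are not independent of it. The PD effect itself differed between Pard3HMKO and Pard3WT for 10 of the 522 genes, with 9 higher (against 0.622%) and 1 lower (against 0.185%).

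In uncultured wild-type B6C3F1 hepatocytes, 526 genes beside opened regions were tested for a trend with age. From E11.5 to E19.5, 214 rose per day (against 18.5% of all 15662 genes tested) and 53 fell (against 17.1%), with a median slope of 0.11 log2 units per day against -0.01. Abcb11 rose by 0.74 ± 0.04 log2 units per day (edgeR adjusted p = 4.02e-12), Nr1h4 by 0.78 ± 0.06 (adjusted p = 1.47e-09), Fabp1 by 0.45 ± 0.03 (adjusted p = 1.03e-09) and Ehhadh by 0.50 ± 0.04 (adjusted p = 3.08e-09). Not all PD-raised genes did so. Acot2 had a slope of -0.42 ± 0.20 (adjusted p = 0.102), Aldh1a1 0.85 ± 0.39 (adjusted p = 0.0902) and Cpt2 -0.11 ± 0.06 (adjusted p = 0.146), and Gstm3 fell by 0.32 log2 units per day (adjusted p = 0.00241). Egfr, which fell with PD in culture, rose with age by 1.19 ± 0.12 (adjusted p = 8.16e-08).

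At E17.5, RNA of Pard3HMKO libraries was lower than Pard3WT for 87 of 542 tested genes beside opened regions (against 7.86% of all genes) and higher for 43 (against 7.09%), with a median log2 difference of -0.12 against 0.00. Stellate and mesothelial markers summed to 45.3 and 52.4 CPM in Pard3WT and 112 and 115 in Pard3HMKO, and endothelial markers to 5.72 and 8.48 against 2.102 and 32.9. Their part in these counts, like that of the hepatocyte markers given above, was not tested. Cat stood at 527 and 534 CPM in Pard3WT and 319 and 277 in Pard3HMKO, a difference of -0.83 ± 0.11 (edgeR adjusted p = 9.83e-07). Mat1a stood at 194 and 222 against 107 and 65.9 (-1.26 ± 0.21, adjusted p = 9.04e-05). Both groups were separate for these 2 genes, whose regions were open in all 6 E17.5 libraries without a deletion and none of the 6 labelled HMKO. The 2 genes were picked after their values were seen and do not stand for the regions of that pattern. With PD in culture Cat rose by 1.94 in Pard3WT and 2.06 in Pard3HMKO (adjusted p = 3.59e-07 and 1.44e-07) and Mat1a by 1.66 and 2.66 (adjusted p = 0.000138 and 7.44e-07). Counts of RNA changes are given by peak pattern, with no test between the patterns. Of 65 tested genes beside the 88 regions open in all Pard3WT and no Pard3HMKO library, 11 were lower and 8 higher in Pard3HMKO, with a median log2 difference of 0.00. Beside the 116 regions open in all 6 of these libraries, 11 of 87 were lower and 5 higher, with a median of -0.16. Beside the 138 regions open in none of the 6, 18 of 109 were lower and 7 higher, with a median of -0.02.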

How the data were processed

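ATAC peaks: per the labels and the submitters' processing notes, the authors prepared each library from 1000 hepatocytes, and the notes name Trimmomatic 0.38, Bowtie2 2.2.5, SAMtools 1.3.1, HOMER, MACS 1.4.2 and mm10, with no order or settings. The deposited files hold 1 peak list per library with a peak score of at least 50. The peaks of the 8 cultured libraries were merged where they overlapped by at least 1 base, and a library had a region when a peak overlapped it by 1 base. Genes and promoter windows came from RefSeq tables of GRCm38.p6, the same assembly as mm10. A region's nearest gene is the nearest protein-coding gene, and RNA is given for genes within 10 kb.

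RNA: the deposited counts are reads per gene and cell. The submitters' processing notes name FastQC 0.11.9, Trimmomatic 0.39, HISAT2 2.1.0 and GRCm38, and which tool counted the reads, and on which annotation, is not given in the sources used here. Cells were summed per library, with no doublet caller: 3495 cells in 88 libraries were used and 769 cells of adult samples were not analysed here. Cultured libraries held 14 to 32 cells and 6851744 to 18862265 reads, and 92 spike-in rows with 126 reads were left out. Low genes were removed with filterByExpr, and edgeR 4.0.16 in R 4.3.3 (TMM, trended dispersion, robust quasi-likelihood fit) was run on all 13 culture groups together, on 18 wild-type libraries with day as a number, and on 44 uncultured libraries of the Cre lines (Foxa3-Cre Pard3WT and Pard3HMKO from E11.5 to P14, and at E15.5 or E17.5 the Yap line, Alfp-Cre Pard3 libraries and libraries of both deletions with their controls). CPM values come from these separate fits and are comparable only within each. Standard errors were derived from the fold change and its F statistic. P-values were Benjamini-Hochberg adjusted over all genes tested. On simulated counts for PD against control in Pard3WT (15946 genes), 37 of 50 genes raised and 38 of 50 lowered by 2 log2 units were called, 9 and 10 of 50 at 1 unit, and 3 unchanged genes. Shares of regions were compared with exact permutation tests (scipy 1.17.1).

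The regions, gene lists and tests were chosen with earlier results of these data known. Regions named in the text are the 12 with the highest lowest PD score, the strongest 6 with a peak in all 12 and the strongest 6 in none of the 12 E17.5 libraries, up to 4 per gene list within 10 kb, and up to 2 of each kind just outside the rule. Genes named are the up to 10 higher and up to 10 lower in both PD comparisons, ordered by the larger adjusted p, the nearest genes of named regions, and Alb and Afp. Cat, Mat1a, Rbm47, Ets2 and Bahcc1 were named after their values were seen, and the genes whose PD effect differed between genotypes because they differed. Predicted, mitochondrial and ribosomal genes were not named. A few regions and genes that meet these rules are not reported here. Alternatives were a peak score of at least 100, equal numbers of peaks, merging within 200 bases, an overlap of 50%, DESeq2 1.42.0, no filter beyond 1 read, other distances to genes, a replicate block and leaving out each library.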

Additional observations from a re-analysis of the deposited data

Results flagged for a closer look

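The effect of PD on RNA differed between Pard3HMKO and Pard3WT for 10 genes beside opened regions, by the interaction term of the edgeR fit. The difference is given as the log2 fold change in Pard3HMKO minus that in Pard3WT, with its adjusted p over all genes tested.

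In 4 genes PD lowered RNA in Pard3WT. Dst, a cytoskeletal linker, stood at 257 and 293 CPM in Pard3WT controls and 85.2 and 84.2 with PD, but at 158 and 163 against 179 and 174 in Pard3HMKO, a difference of 1.83 (adjusted p = 0.000966). Epas1, the hypoxia factor HIF2A, went from 146 and 120.1 to 64.7 and 42.1 CPM in Pard3WT and from 43.7 and 40.8 to 59.2 and 71.0 in Pard3HMKO, a difference of 1.94 (adjusted p = 0.0034). Osgin1, an oxidative stress gene, went from 645 and 583 to 72.6 and 91.4 CPM in Pard3WT and from 576 and 355 to 492 and 225 in Pard3HMKO, a difference of 2.53 (adjusted p = 0.0479). Egfr fell in both genotypes, with a difference of 3.49 (adjusted p = 0.0206).

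The remaining 6 genes had a rise in at least 1 genotype. Itpr2, a calcium channel of the endoplasmic reticulum, had 34.5 and 41.2 against 67.7 and 70.1 CPM in Pard3WT and 8.80 and 4.83 against 56.2 and 85.1 in Pard3HMKO, a difference of 2.51 (adjusted p = 0.00547). Tcf7l2, a factor of the Wnt pathway, had 128 and 146 against 133 and 133 CPM in Pard3WT and 24.6 and 53.9 against 129.8 and 154 in Pard3HMKO, a difference of 1.90 (adjusted p = 0.0175). Lipc differed by 2.11 (adjusted p = 0.0265), Ugt2b34, a glucuronosyltransferase of a family with shared sequence, by 1.83 (adjusted p = 0.0487), and Tfr2, a transferrin receptor, by 1.13 (adjusted p = 0.0495). In these 5 genes the Pard3HMKO controls lay below the Pard3WT controls. Rcan1, a calcineurin inhibitor with 2 opened regions, was the gene with the smaller rise in Pard3HMKO: 15.996 and 13.1 against 61.8 and 57.5 CPM in Pard3WT and 19.4 and 30.6 against 34.5 and 33.9 in Pard3HMKO, a difference of -1.58 (adjusted p = 0.0479). With the replicate block 8 genes were called higher and 0 lower, so the call of Rcan1 was lost there.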

How the results depend on the processing

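The order of opened and closed regions turned with the same number of peaks in every library (1504 opened and 765 closed, against 766 and 1601). The number of opened regions was 377 with peak scores of at least 100, and 752 and 760 with wider merging and a 50% overlap. It was 790 to 1251 without each cultured library in turn, where a condition of the rule is dropped. The E17.5 difference in share was -34.7 points (Pard3) and -30.6 (Yap) at scores of at least 100, -27.9 and -21.5 with equal numbers of peaks, and -30.9 to -28.1 and -27.1 to -22.04 without single libraries. Genes beside opened regions that changed with PD in Pard3HMKO numbered 110 to 138 without single libraries, against 166. Genes whose PD effect differed between genotypes numbered 10 in the fit reported, 51 with no filter and 31 with DESeq2. The replicate block gave 151 and 168 changed genes for PD in Pard3WT and Pard3HMKO, against 150 and 166, and 8 for the difference between genotypes. The labels give the groups common replicate numbers. Same-numbered PD and control libraries of the Pard3 line did not deviate together (r = -0.03 in Pard3WT and 0.03 in Pard3HMKO), and the fit reported did not pair them. With 2 libraries per group, these values cannot exclude a shared animal or batch. Other groups were not checked. Total calls in the other comparisons stayed within 1.5 times of those reported in each alternative run, but not each direction: genes raised by TPPB went from 6 to 20, and genes lowered by PD in Pard3WT from 26 to 13. For the wild-type trend, leaving out E15.5 and E16.5, an alternative chosen after seeing the data, gave 298 genes against 267. Peak lists without read depth limit all ATAC results: a region without a called peak may still be open. With 2 libraries per culture group and 3 per E17.5 group, small changes could not be detected.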

Other observations

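Pard3WT cultures given TPPB with PD enter no comparison above and are given as values. Ehhadh RNA was 20.7 and 23.3 CPM with TPPB alone and 4102 and 4229 with TPPB and PD, Abcb11 2.12 and 2.42 against 374 and 345, Aldh1a1 0.955 and 1.75 against 548 and 374, and Gstm3 29.1 and 37.0 against 14546 and 12230. Egfr was 58.3 and 69.5 against 6.89 and 1.99. In these 5 genes the libraries with both compounds were on the same side of the TPPB libraries as PD was of its controls.

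In uncultured wild-type hepatocytes at E19.5, Aldh1a1 RNA was at 0.244 and 0.348 CPM, Ehhadh at 166 and 161 and Abcb11 at 299.98 and 316. These libraries were normalized apart from the cultured ones, so no level is compared with PD cultures. Acot2 in wild type was at 722, 964 and 833 CPM at E15.5 and at 12.7 and 8.40 at E19.5. Egfr went from 3.30, 3.11 and 2.79 CPM at E15.5 to 118 and 128 at E19.5. These E15.5 libraries held 4506130 to 6518510 reads and those at E19.5 52309482 and 69155912. A difference between these sets of libraries therefore cannot be told apart from age.

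None of the genes in the lists for AP-1 and immediate early factors, cell division, or the markers of hepatocytes, biliary, endothelial, stellate, macrophage and erythroid cells lay within 10 kb of an opened region. With 2.61% of all protein-coding genes that near to one, a list of this size with none is close to the background. Of the 18 AP-1 and immediate early genes tested, 12 fell and 1 rose with PD in Pard3WT and 9 fell in Pard3HMKO. Of the 23 cell division genes, 4 fell in Pard3WT and 0 in Pard3HMKO. Over all genes tested, 6.80% fell and 7.99% rose in Pard3WT, and 5.51% fell and 9.01% rose in Pard3HMKO.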
